A study of Drosophila melanogaster with 18 samples.

Results

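Chromosome 4, the small dot chromosome of the fruit fly Drosophila melanogaster, was followed gene by gene through the first hours of embryonic development in embryos with and without an altered RNA-binding protein. The members were the genes that the Ensembl BDGP6.54 annotation places on chromosome 4 and that were listed in at least 1 of the 3 deposited tables, leaving out 5 genes by symbol, which encode ribosomal, translation initiation, respiratory chain, ATP synthase and Polycomb-group proteins. This gave 86 members of 9236 genes listed in all. Of the members, 69 were listed at 0-1h, 75 at 1-2h and 86 at 2-3h. They were 72 protein-coding genes, 11 non-coding RNA genes and 3 pseudogenes.

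The samples were whole embryos of the genotype orb2-delta-zz, in which the protein ORB2 has lost its zinc-binding ZZ domain, and of w1118 wild type embryos, named as the control before injection. ORB2 belongs to the CPEB proteins, which bind transcripts and control their translation and stability. The labels do not say whether the edited stock was 1 line or several. Eggs had been laid 0-1h, 1-2h or 2-3h before collection, by flies kept at 25 ºC. Each genotype had 3 libraries at each time point, and the series 18. Total RNA depleted of ribosomal RNA was sequenced. Nothing in the labels says that the libraries came from separate crosses, so p-values measure the spread between these samples, which may be technical.

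As background, chromosome 4 is unusual in that it is packaged for most of its length as heterochromatin, with HP1 and methylated histone H3, while many of its genes are active. Its genes lie among many fragments of transposable elements, and the protein POF binds the chromosome's active genes and raises their output. The chromosome hardly ever undergoes crossing-over. It carries the Hedgehog effector cubitus interruptus, the Wnt effector pangolin and the eye selector genes eyeless and twin of eyeless. In the hours sampled here the embryo degrades transcripts laid down by the mother and begins to transcribe its own genome.

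The annotation shows how the members differ in layout from genes elsewhere. The members lay between positions 879 and 1271759 of chromosome 4, 43 on each strand. A protein-coding member spanned a median of 10531 bp, against 2865 bp for the 8581 listed protein-coding genes of the arms X, 2L, 2R, 3L and 3R. The exons of a protein-coding member covered a median of 4449.5 bp, against 2179 bp on those arms. A transposable element fragment lay within the span of 61 of the 72 protein-coding members (84.7%), against 685 of 8581 (7.98%). Another annotated gene overlapped 38 of the 86 members, and for 37 of these it lay on the opposite strand. The library kit keeps strand, but the labels do not say whether quantification used it, so the values of overlapping genes may share reads.

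The values were normalized counts and TPM, a level scaled by transcript length to a fixed total per library. Normalized counts summed to 3.36e+07 to 3.85e+07 per library, and the number of reads per library is unknown. The summed TPM of 6 maternal markers was 4110 to 4362 in orb2-delta-zz and 3817 to 4029 in wild type at 0-1h, against 951.3 to 955.1 in orb2-delta-zz and 541.5 to 1465 in wild type at 2-3h. At 0-1h these sums did not overlap between the genotypes. All 9 early zygotic markers were listed, and their summed TPM was 39.0 to 57.1 in orb2-delta-zz and 49.9 to 72.0 in wild type at 0-1h, 379.1 to 466.8 in orb2-delta-zz and 159.6 to 408.2 in wild type at 1-2h, and 863.2 to 937.4 in orb2-delta-zz and 917.9 to 1212 in wild type at 2-3h. Of 4 markers of later embryos, 2 were listed at 0-1h, with sums of 0.581 to 2.36 TPM in orb2-delta-zz and 2.70 to 3.17 TPM in wild type. At 1-2h 3 were listed, with 6.27 to 10.8 TPM in orb2-delta-zz and 12.6 to 39.8 TPM in wild type, and at 2-3h all 4, with 63.6 to 98.9 TPM in orb2-delta-zz and 56.1 to 93.3 TPM in wild type. The sum of the later markers was thus lower in every orb2-delta-zz library than in every wild type library at 0-1h and 1-2h, and overlapped at 2-3h. Single later markers overlapped between the genotypes at the earlier times too. Act87E did so at 0-1h, and elav and Act57B at 1-2h. The 6 markers of egg-shell and adult female tissue were not listed at any time point. At 2-3h the wild type libraries spread widely in summed maternal marker level, at 541.5 TPM in replicate 1, 968.0 TPM in replicate 2 and 1465 TPM in replicate 3. At 1-2h wild type replicate 2 stood apart in the same measure, at 3486 TPM against 2584 and 2909 TPM, and held the lowest early zygotic and the highest later marker sum of its group. In that library the member bt, which encodes a giant muscle protein, had a normalized count of 1206, against 39.4 and 41.5 in the other wild type libraries. High counts of bt were not confined to that library. At 2-3h bt had 53.6, 792.1 and 102.5 in orb2-delta-zz, against 323.0, 122.1 and 601.4 in wild type. The later markers Act57B and Mhc were highest at 2-3h in orb2-delta-zz replicate 2, at 14.6 and 4.38 TPM. The part of these markers and libraries in the results was not tested. Members whose call differs without wild type replicate 2 at 1-2h, or without wild type replicate 1 at 2-3h, are given with and without it. In whole embryos, fewer cells of a type and less RNA per cell cannot be told apart.

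Together the members took a small share of the transcriptome in both genotypes. Their share of summed TPM was 0.564% to 0.576% in orb2-delta-zz and 0.527% to 0.571% in wild type at 0-1h. It was 0.496% to 0.552% in orb2-delta-zz and 0.494% to 0.573% in wild type at 1-2h, and 0.405% to 0.524% in orb2-delta-zz and 0.473% to 0.535% in wild type at 2-3h. The libraries of the genotypes overlapped in this share at each time point. The median member had 48.4 TPM in orb2-delta-zz and 47.5 TPM in wild type at 0-1h, and 10.46 TPM in orb2-delta-zz and 14.9 TPM in wild type at 2-3h, when 17 more members were listed. The most abundant members were Rad23, which carries ubiquitylated proteins to the proteasome, gw, the GW182 protein of microRNA silencing, and PlexA, a receptor for semaphorin guidance cues. At 1-2h their mean levels were 371.2, 375.2 and 280.1 TPM in orb2-delta-zz and 346.9, 328.0 and 369.4 TPM in wild type. At the other end, the eye selector gene ey had a mean of 0.286 TPM in orb2-delta-zz and 0.206 TPM in wild type at 0-1h, and 0.708 TPM in orb2-delta-zz and 1.10 TPM in wild type at 2-3h.

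The first comparison asked which members differed between orb2-delta-zz and wild type at each time point. It found large differences in both directions, most of them at low levels, and no called member with a mean of 20 TPM or more changed by 1 or more on the log2 scale. A gene was called when its Benjamini-Hochberg adjusted p, taken over all genes tested, was under 0.05 in limma's test on log2(normalized count + 1). At 0-1h, 26 of 68 members tested were called (38.2%), against 21.3% of all genes tested. Of these 17 were higher and 9 lower in orb2-delta-zz, against 11.2% and 10.1% of all genes. At 1-2h, 14 of 75 members were called (18.7%), against 7.37% of all genes, with 8 higher and 6 lower where all genes gave 3.52% and 3.85%. With the replicate number as a block, taken as pairing libraries at 1-2h from weak correlations, 10 members were called, against 6.11% of all genes. At 2-3h, 8 of 84 members were called (9.52%), against 3.28% of all genes, with 3 higher and 5 lower where all genes gave 1.55% and 1.73%. Leaving out 1 library moved the count at 2-3h most, to 20 when wild type replicate 1 was left out and to 1 when any orb2-delta-zz replicate or wild type replicate 2 was. At 1-2h it was 21 without wild type replicate 2, and 8 or 9 without any 1 orb2-delta-zz replicate.

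Leaving out wild type replicate 2 at 1-2h, or wild type replicate 1 at 2-3h, added calls and ended none. These were the libraries whose removal gave the highest count of calls at their time point, so the added calls are a description alone. At 2-3h wild type replicates 1 and 3 held the lowest and the highest summed maternal marker level. Leaving out replicate 3 instead gave 6 calls. At 1-2h without wild type replicate 2 the background was 15.6% of all genes, and the 7 added members were all lower in orb2-delta-zz, with the sign they also had with it. Without that library fd102C had a log2 fold change of -1.25, against -0.90 with it (limma adjusted p = 0.0431 and 0.223), and zfh2 one of -1.19, against -0.88 (adjusted p = 0.0181 and 0.153). The value was -0.61 for pan, against -0.45 (limma adjusted p = 0.0322 and 0.186), and -0.58 for ci, against -0.19 (adjusted p = 0.0231 and 0.755). The others were PlexA, at -0.59 against -0.48 (limma adjusted p = 0.0109 and 0.0573), the zinc transporter gene Zip102B, at -0.41 against -0.33 (adjusted p = 0.0273 and 0.101), and PMCA, at -0.37 against -0.31 (adjusted p = 0.0292 and 0.0876). At 2-3h without wild type replicate 1 the background was 18.5% of all genes, and of the 12 added members 4 were higher and 8 lower, each with the sign it had with all libraries. The higher ones were CG1909, at 1.64 against 1.25 with the library (limma adjusted p = 0.0115 and 0.162), asRNA:CR43425, at 1.01 against 0.63 (adjusted p = 0.0318 and 0.465), Cadps, at 0.62 against 0.45 (adjusted p = 0.0269 and 0.297), and Zyx, at 0.42 against 0.32 (adjusted p = 0.0346 and 0.288). Among the lower ones Mitf was at -1.92 against -1.20 (limma adjusted p = 0.00765 and 0.408), lncRNA:CR43958 at -1.44 against -0.99 (adjusted p = 0.00722 and 0.282), and apolpp at -1.10 against -1.29 (adjusted p = 0.0484 and 0.0963). CG33941 was at -0.84 against -0.57 (limma adjusted p = 0.00536 and 0.306), and 4E-T, a binding partner of the translation factor eIF4E, at -0.82 against -0.52 (adjusted p = 0.0226 and 0.429). The TGF-beta family ligand gene mav was at -0.66 against -0.54 (limma adjusted p = 0.025 and 0.165), Eph at -0.51 against -0.38 (adjusted p = 0.0136 and 0.182), and Ephrin at -0.46 against -0.35 (adjusted p = 0.0194 and 0.213).

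The differences went in both directions, with a lean to lower values at 1-2h and 2-3h that was not tested. The log2 fold change was above 0 for 33 of 68 members at 0-1h, 30 of 75 at 1-2h and 32 of 84 at 2-3h. Over all genes tested it was above 0 for 3623 of 7559, 3951 of 8095 and 4505 of 9014. The median log2 fold change over the members tested was -0.0048 at 0-1h, where that over all genes was -0.0080. At 1-2h the medians were -0.17 for members and -0.0074 for all genes, and at 2-3h -0.10 for members and -9.4e-05 for all genes. At both of these times replicate 1 had the lowest member share of summed TPM within orb2-delta-zz. Its share was 0.496% at 1-2h, where wild type replicate 1 had 0.494%, and 0.405% at 2-3h, below every wild type library. The part of this library in the lean was not tested. The median size of the change, sign ignored, was 0.20, 0.31 and 0.31 on the log2 scale, against 0.11, 0.18 and 0.22 over all genes. The 3 libraries of orb2-delta-zz all lay on 1 side of the 3 wild type libraries for 39 members at 0-1h (57.4%), against 38.9% of all genes. They did so for 36 members at 1-2h (48%), against 32.8%, and for 24 members at 2-3h (28.6%), against 23.5%. A call together with a change of 1 or more on the log2 scale was found for 12, 9 and 7 members at the 3 time points, against 4.17%, 3.35% and 2.52% of all genes.

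**Figure D1:**
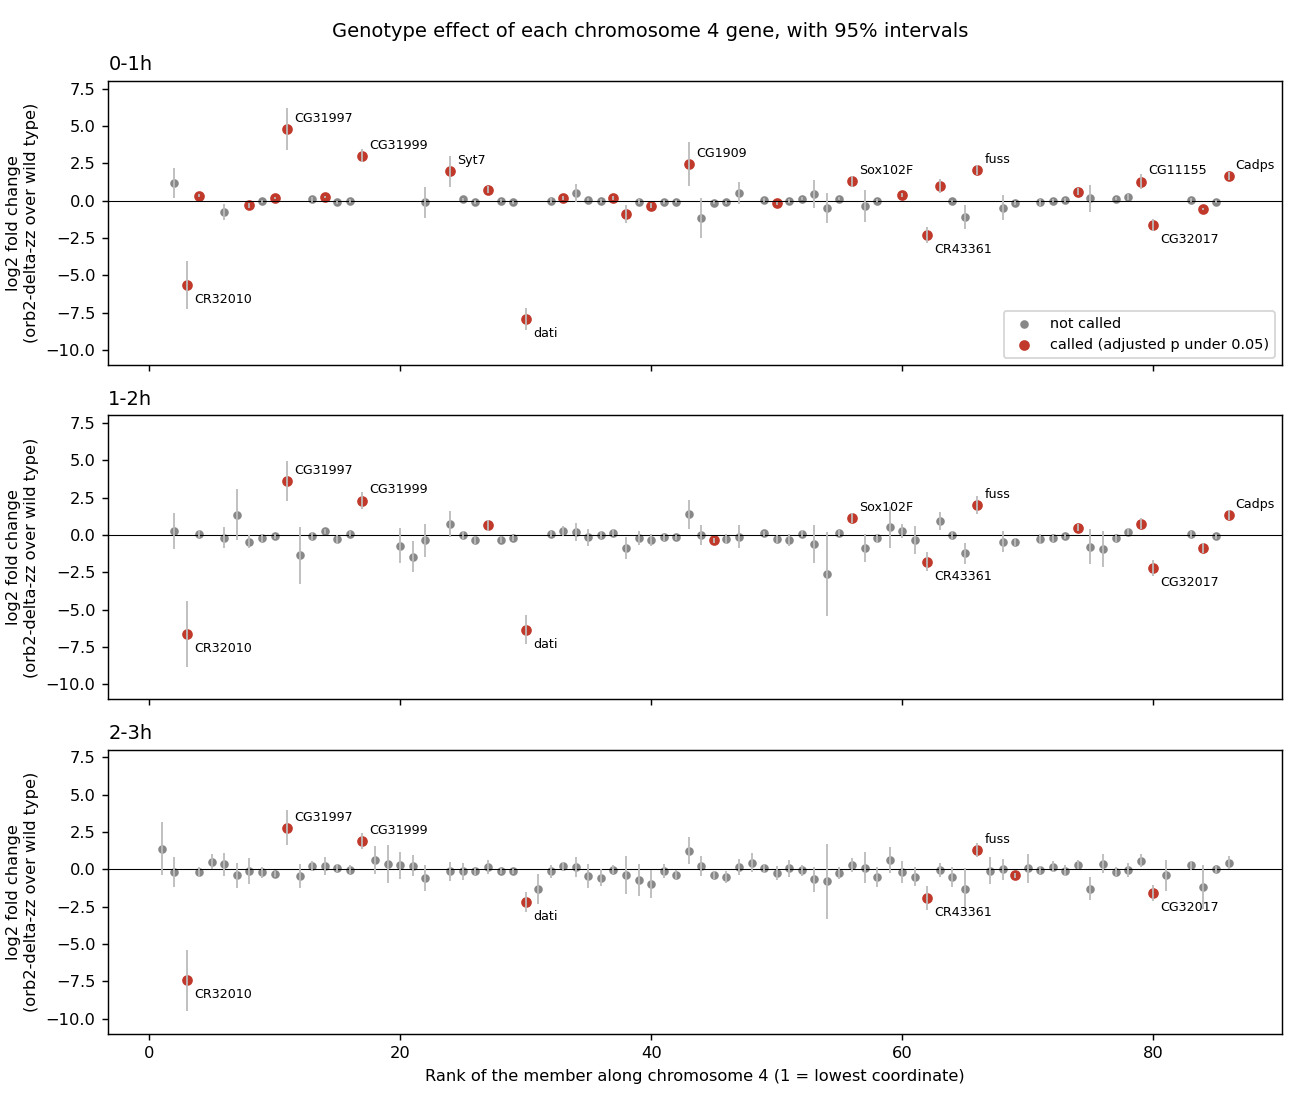
Log2 fold change of orb2-delta-zz over wild type (vertical axis, on the log2(normalized count + 1) scale) for each member tested, in order along chromosome 4 (horizontal axis), with 95% intervals as bars. Called members are in red and those with a change of 1 or more are named. The large changes of both signs are spread along the whole chromosome, from CR32010 near its start to Cadps at its end.

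Calls of neighbouring members were counted along the chromosome, passing over members not tested. The number expected without grouping was not worked out. At 0-1h, 6 pairs of neighbouring members were both called, and 1 of these pairs changed in the same direction. At 1-2h there was 1 such pair, of opposite directions, and at 2-3h there was 0. The share of genes called differed between the other arms. It was 25.3% on X, 27.5% on 2L and 27.6% on 2R at 0-1h, and 13.7% on each of 3L and 3R. The gene orb2 itself lies on 3L. At 2-3h it was 4.71% on X, 5.3% on 2L and 4.53% on 2R, against 1.31% on 3L and 1.12% on 3R. These shares are descriptions, and the differences between arms were not tested.

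**Figure D2:**
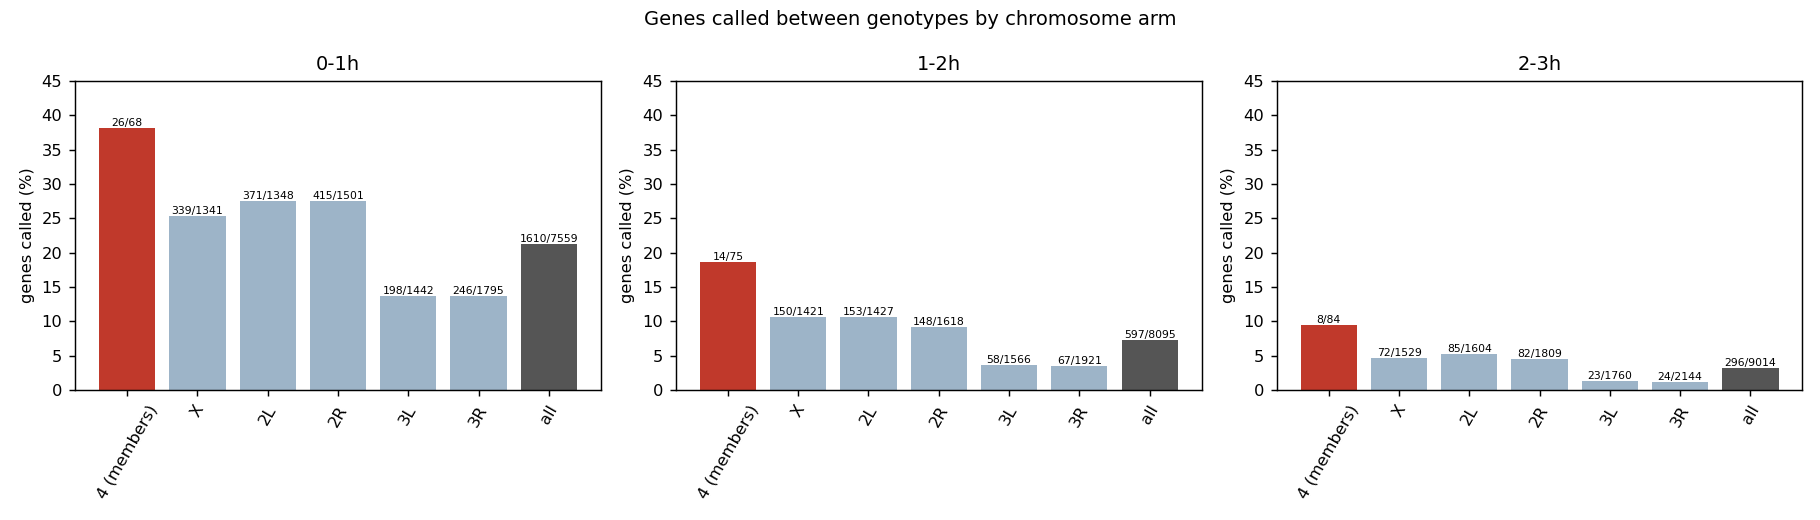
Percentage of genes tested that were called between orb2-delta-zz and wild type (vertical axis) by chromosome arm (horizontal axis) at each time point, with the number called over the number tested above each bar. The members on chromosome 4 stand at 38.2%, 18.7% and 9.52%, and arms 3L and 3R are lowest at each time point.

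The called members came mostly from a band of low to moderate level. Of the 19 members tested at 0-1h with a mean of 2 to 20 TPM, 14 were called (73.7%), against 32.4% of all genes in that band. Of the 39 members at 20 TPM or more, 9 were called (23.1%), against 19.3% of all genes at that level, and 0 of these 9 changed by 1 or more on the log2 scale. At 1-2h the band of 2 to 20 TPM held 10 of the 14 calls, among 16 members tested there (62.5%), against 11.3% of all genes in that band. At 2-3h it held 6 of the 8 calls, among 24 members (25%), against 3.64%.

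**Figure D3:**
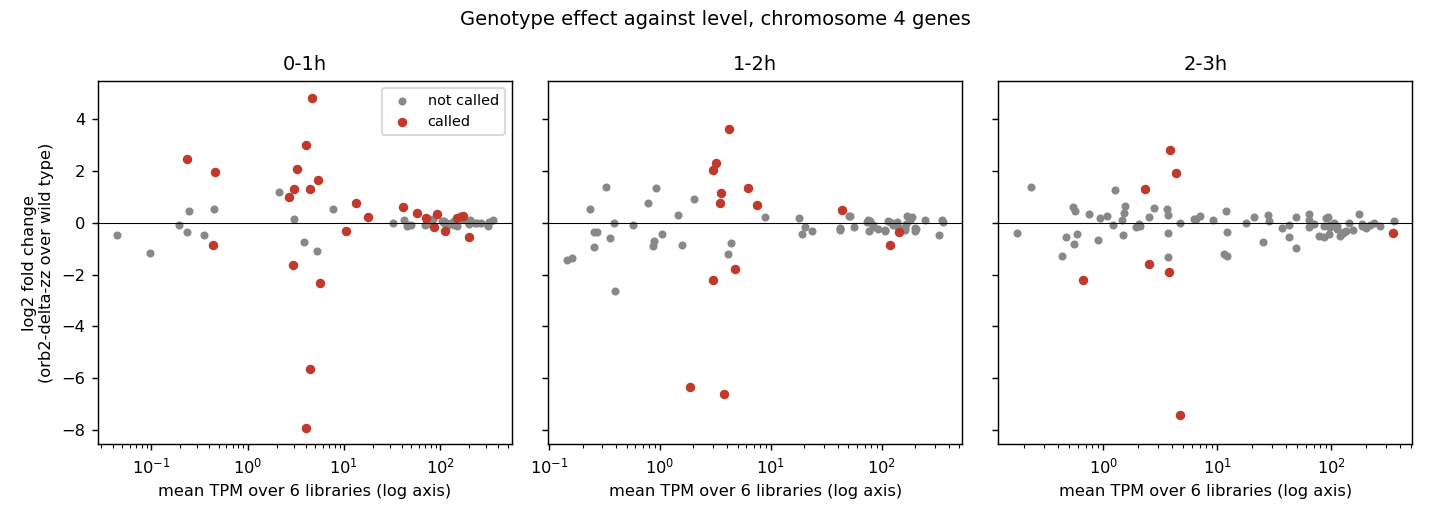
Log2 fold change of orb2-delta-zz over wild type (vertical axis) against the mean TPM over the 6 libraries of the time point (horizontal axis, log scale) for each member tested, with called members in red. At 0-1h the called members of 20 TPM or more lie within 1 of 0, and the large changes lie between 0.1 and 20 TPM.

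Of the 68 members tested at all 3 time points, 7 were called in 1 direction at each of them, which was the case for 1.85% of all genes. They were CR32010, dati, CG32017 and CR43361, which were lower in orb2-delta-zz, and CG31997, CG31999 and fuss, which were higher. The 3 tables were normalized separately, so their levels across time are a description. In the values that follow, the libraries are given in replicate order.

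CR32010 (FBgn0052010), an annotated pseudogene on the minus strand from 12640 to 25054, was almost missing from orb2-delta-zz. At 0-1h it had normalized counts of 7.55, 53.1 and 3.57 in orb2-delta-zz, against 620.3, 607.5 and 670.4 in wild type. At 2-3h the libraries held 4.35, 12.1 and 0 in orb2-delta-zz, against 652.2, 804.0 and 674.8 in wild type. Every wild type library stood more than 10 times above every orb2-delta-zz library at both times. It was lower at all times, with a log2 fold change of -5.62 at 0-1h (SE 0.72, limma adjusted p = 0.00045). Later values were -6.60 (1-2h, adjusted p = 0.00671) and -7.42 (2-3h, adjusted p = 0.00792), the last not called if orb2-delta-zz replicate 1 or wild type replicate 2 was left out. No other annotated gene overlaps it.

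The transcription factor gene dati (FBgn0262636, minus strand, 375640 to 395605), which encodes a zinc finger protein known from neurons that control courtship and egg laying, showed the largest fold change of any member at 0-1h. The youngest embryos had normalized counts of 0.804, 1.57 and 3.07 in orb2-delta-zz, against 610.2, 651.6 and 631.1 in wild type. At 1-2h they were 6.01, 1.74 and 2.97 in orb2-delta-zz, against 269.4, 470.4 and 312.8 in wild type. The oldest embryos, at 2-3h, had 17.9, 26.3 and 26.6 in orb2-delta-zz, against 120.0, 86.4 and 129.8 in wild type. The groups did not overlap at any time, and the gap was widest at 0-1h. At 0-1h the log2 fold change of dati was -7.89 (limma adjusted p = 2.2e-07, SE 0.33), followed by -6.33 at 1-2h and -2.20 at 2-3h (adjusted p = 0.000148 and 0.0113). On TPM + 1 the log2 fold change at 0-1h was -3.14. Non-coding genes on the opposite strand, asRNA:CR44027 and lncRNA:CR45125, lie within its span.

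CG32017 (FBgn0052017) is an uncharacterised protein-coding gene on the minus strand from 1137830 to 1162158, most of which overlaps the kinesin gene Kif3C on the other strand. At 0-1h CG32017 had normalized counts of 70.4, 95.1 and 63.6 in orb2-delta-zz, against 225.7, 209.2 and 274.2 in wild type. The values at 2-3h were 65.3, 79.2 and 57.0 in orb2-delta-zz, against 166.1, 214.8 and 237.8 in wild type. All orb2-delta-zz libraries lay below all wild type libraries at each time. CG32017 was lower by log2 fold changes of -1.63, -2.23 and -1.60 at the 3 time points (limma adjusted p = 0.000284, 0.00139 and 0.0171). The neighbouring gene CG11155, whose end overlaps CG32017 by 90 bp on the opposite strand, was called in the other direction. At 0-1h CG11155 had normalized counts of 451.1, 217.4 and 295.7 in orb2-delta-zz, against 130.9, 117.6 and 130.5 in wild type. Its groups did not overlap, and orb2-delta-zz replicate 1 was the highest library. It was higher by 1.28 on the log2 scale at 0-1h (limma adjusted p = 0.00383). At 1-2h the difference was 0.76 (limma adjusted p = 0.0323), and the fit with the replicate number as a block gave an adjusted p of 0.0666. The 1-2h call of CG11155 was also lost without any 1 orb2-delta-zz replicate or wild type replicate 3.

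CR43361 (FBgn0263093), a pseudogene from 905179 to 907924 on the plus strand, lies wholly within the span of unc-13 on the opposite strand. At 0-1h CR43361 had normalized counts of 51.1, 54.6 and 28.6 in orb2-delta-zz, against 217.4, 209.4 and 228.3 in wild type. By 2-3h these were 41.2, 31.7 and 46.4 in orb2-delta-zz, against 94.3, 166.8 and 208.1 in wild type. The wild type libraries spread widely at 2-3h and still lay above every orb2-delta-zz library. Its log2 fold changes were -2.31, -1.79 and -1.89 (limma adjusted p = 0.000143, 0.00829 and 0.0367).

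CG31997 (FBgn0051997), a short uncharacterised gene on the minus strand from 154654 to 156060, was near absent in wild type. At 0-1h its libraries held normalized counts of 86.4, 77.0 and 75.8 in orb2-delta-zz, against 4.36, 3.42 and 0 in wild type. The 2-3h libraries held 70.9, 69.9 and 46.4 in orb2-delta-zz, against 12.1, 11.9 and 3.39 in wild type. Every orb2-delta-zz library was above every wild type library at each time. CG31997 was higher by 4.81 on the log2 scale at 0-1h (SE 0.63, limma adjusted p = 0.000553). At 1-2h and 2-3h it was higher by 3.60 and 2.78 (adjusted p = 0.0102 and 0.0362). On TPM it was 2.98 at 0-1h. The call at 1-2h was lost without orb2-delta-zz replicate 1 or 2.

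CG31999 (FBgn0051999, minus strand, 215009 to 227748), another uncharacterised protein-coding gene, was also higher in orb2-delta-zz. CG31999 had normalized counts at 0-1h of 500.9, 355.7 and 324.5 in orb2-delta-zz, against 42.6, 48.8 and 52.2 in wild type. Those at 2-3h were 340.5, 431.4 and 444.9 in orb2-delta-zz, against 136.1, 100.3 and 92.1 in wild type. The groups stayed apart at each time, and the wild type libraries were higher at 2-3h than at 0-1h. Its log2 fold changes in time order were 2.99, 2.30 and 1.89 (limma adjusted p = 5.5e-06, 0.00165 and 0.0072).

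The gene fuss (FBgn0039932, minus strand, 962341 to 978489) encodes a Ski-family transcriptional corepressor that acts in a subset of neurons. Libraries of 0-1h had normalized counts of 247.8, 310.2 and 275.0 in orb2-delta-zz, against 60.4, 67.3 and 71.2 in wild type. Libraries of 2-3h had 189.6, 161.1 and 195.8 in orb2-delta-zz, against 64.3, 69.9 and 87.3 in wild type. No library of 1 genotype reached the range of the other. For fuss the log2 fold changes were 2.05, 2.01 and 1.30 (limma adjusted p = 1.5e-05, 0.0034 and 0.0246). On the opposite strand lncRNA:sphinx overlaps it by 2094 bp. The antisense gene asRNA:CR44030 overlaps it by 352 bp, and its log2 fold change of -1.09 at 0-1h did not pass the test (limma adjusted p = 0.0562).

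At 2-3h none of the 8 calls was kept in every fit that left out 1 library. CR32010 was the 1 member still called with the replicate number as a block, a fit that called 0.61% of all genes, against 3.28% without the block. Under that block the other 6 of these genes had limma adjusted p-values at 2-3h of 0.0932 for dati, 0.114 for CG32017, 0.125 for CR43361, 0.084 for CG31997, 0.0873 for CG31999 and 0.12 for fuss. At 0-1h all 7 were called in each fit that left out 1 library.

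**Figure D4:**
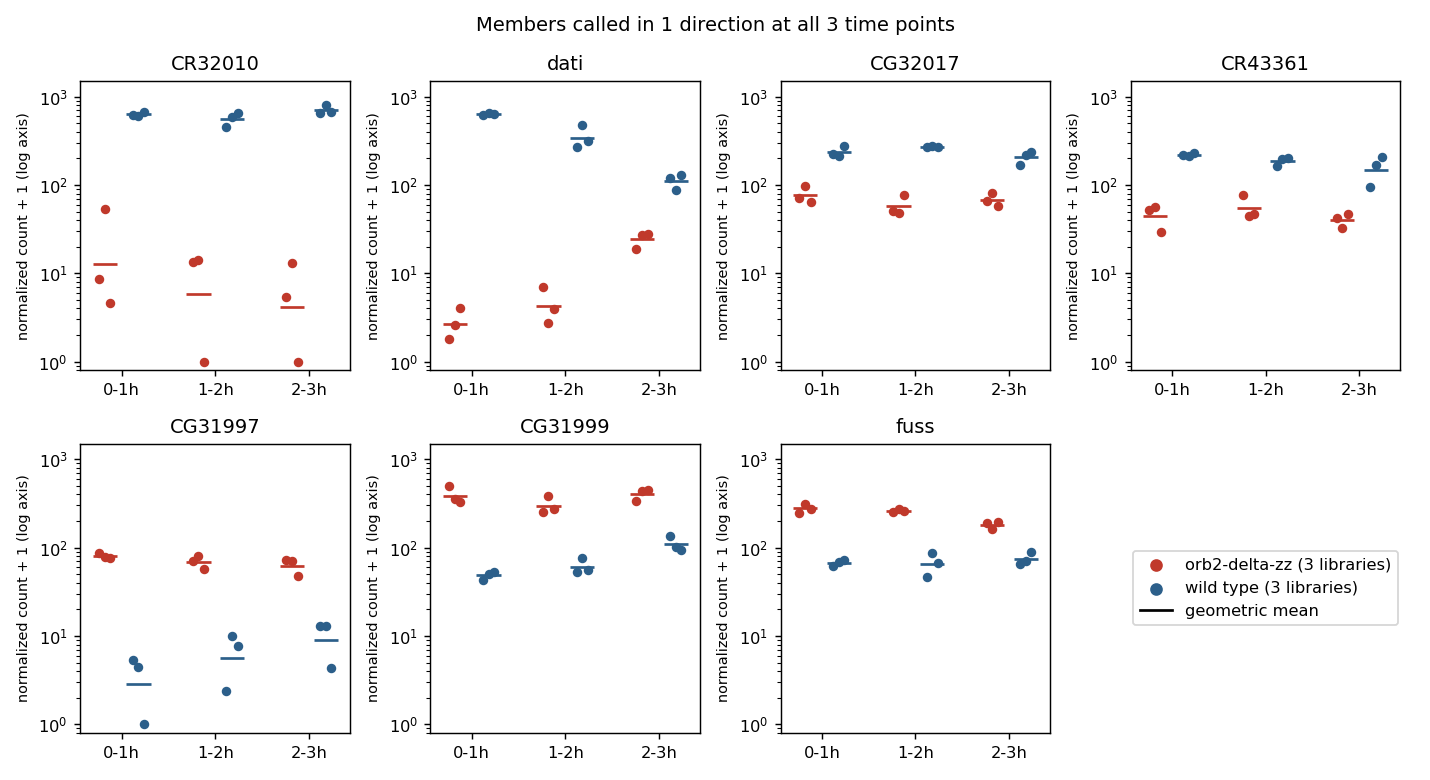
Normalized count + 1 per library (vertical axis, log scale) at each time point (horizontal axis) for the 7 members called in 1 direction at all 3 time points, with orb2-delta-zz in red to the left of wild type in blue. Bars mark the geometric mean of 3 libraries. In CR32010, dati, CG32017 and CR43361 every orb2-delta-zz library lies below every wild type library, and in CG31997, CG31999 and fuss every one lies above.

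Called members among the chromosome's developmental transcription factors lay in both directions. Of 13 such members tested at 0-1h, 2 were higher in orb2-delta-zz (fuss and Sox102F) and 4 were lower (dati, Mitf, pan and zfh2), against 11.2% higher and 10.1% lower of all genes, with a median log2 fold change of -0.36 over the 13. At 1-2h fuss and Sox102F were higher and dati and Mitf lower, of 14 tested, against 3.52% higher and 3.85% lower of all genes. At 2-3h fuss was higher and dati lower, of 14 tested, against 1.55% and 1.73%.

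Mitf encodes a factor that activates lysosomal and proton pump genes, and its transcript was abundant in the youngest embryos. Mitf had normalized counts at 0-1h of 8149, 8555 and 8360 in orb2-delta-zz, against 12381, 12156 and 12647 in wild type. At 1-2h they were 4300, 4532 and 4454 in orb2-delta-zz, against 6459, 9856 and 8101 in wild type. The groups did not overlap at either time, and wild type replicate 2 was the highest at 1-2h. The log2 fold change of Mitf at 0-1h was -0.57 (limma adjusted p = 8.4e-06, SE 0.039). At 1-2h the value was -0.86 (SE 0.14, limma adjusted p = 0.0127), a call lost on TPM and with any 1 orb2-delta-zz replicate or wild type replicate 3 left out. At 2-3h the normalized counts were 270.2, 366.3 and 318.1 in orb2-delta-zz, against 266.8, 864.2 and 1660 in wild type, where replicate 1 lay below all orb2-delta-zz libraries. This difference of -1.20 on the log2 scale was not called (limma adjusted p = 0.408). With wild type replicate 1 left out the log2 fold change of Mitf was -1.92 (adjusted p = 0.00765).

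Sox102F, an HMG-box factor of the SoxD group, had normalized counts at 0-1h of 295.2, 214.4 and 227.9 in orb2-delta-zz, against 91.5, 97.2 and 105.4 in wild type. The 2-3h values were 282.0, 351.2 and 313.0 in orb2-delta-zz, against 317.8, 244.2 and 212.0 in wild type. The groups were apart at 0-1h and overlapped at 2-3h. Sox102F was higher by 1.31 on the log2 scale at 0-1h and by 1.15 at 1-2h (limma adjusted p = 0.000393 and 0.00474). Its log2 fold change of 0.30 at 2-3h did not pass the test.

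The gene pan encodes the TCF factor of Wnt signalling and zfh2 a zinc finger homeodomain protein of wing and leg development. At 0-1h pan had normalized counts of 697.3, 625.6 and 626.5 in orb2-delta-zz, against 831.0, 774.9 and 813.8 in wild type, and zfh2 had 79.9, 42.6 and 84.0 in orb2-delta-zz, against 109.0, 126.7 and 130.8 in wild type. Every orb2-delta-zz library was below every wild type library in both genes. This gave log2 fold changes of -0.31 for pan and -0.88 for zfh2 (limma adjusted p = 0.0169 and 0.0423). Both calls were lost on TPM. That of pan also ended with orb2-delta-zz replicate 2 or 3 or wild type replicate 1 or 3 left out, and that of zfh2 with orb2-delta-zz replicate 2 or any 1 wild type replicate left out. The Hedgehog effector ci had normalized counts of 330.9, 157.6 and 323.3 in orb2-delta-zz, against 432.0, 425.3 and 445.3 in wild type, and its log2 fold change of -0.76 did not pass the test (adjusted p = 0.0548). The eye selector genes ey and toy, with log2 fold changes of 0.44 and -0.46 at 0-1h, did not pass either. Nor did lgs, which encodes an adaptor of Wnt signalling, at -0.0083.

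Of 11 members tested at 0-1h that act in axon guidance and at synapses, 5 were higher in orb2-delta-zz and 0 lower, against 11.2% and 10.1% of all genes. The 5 were Cadps, unc-13 and Syt7, which prime or trigger vesicle release, mGluR, a metabotropic glutamate receptor, and PlexB, a semaphorin receptor. At 1-2h Cadps was higher and Eph lower, of 11 tested, against 3.52% higher and 3.85% lower of all genes. At 2-3h PlexA was lower, of 12 tested, against 1.73% lower of all genes. The transcripts were measured in embryos that had no nervous system yet.

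Cadps (FBgn0053653), the last member on the chromosome, lies on the plus strand from 1230837 to 1271759. Its 0-1h libraries held normalized counts of 730.4, 722.8 and 768.4 in orb2-delta-zz, against 238.3, 204.0 and 276.6 in wild type. The 1-2h libraries had 749.9, 898.4 and 843.6 in orb2-delta-zz, against 368.4, 298.9 and 321.9 in wild type. The 2-3h libraries had 1108, 1318 and 1422 in orb2-delta-zz, against 1175, 858.1 and 804.3 in wild type. The groups were apart at 0-1h and 1-2h, and at 2-3h wild type replicate 1 lay within the range of orb2-delta-zz. Cadps was higher by 1.63 on the log2 scale at 0-1h (SE 0.12, limma adjusted p = 1.1e-05) and by 1.33 at 1-2h (adjusted p = 0.00136). The 2-3h value of 0.45 was not called with all libraries (limma adjusted p = 0.297).

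The other guidance and synapse members showed smaller or less certain differences. The gene mGluR had normalized counts at 0-1h of 216.5, 174.2 and 213.2 in orb2-delta-zz, against 137.7, 86.6 and 88.6 in wild type. Its groups did not overlap, and the log2 fold change was 0.97 (limma adjusted p = 0.00841). The low transcript Syt7 had a mean normalized count of 28.2 ± 11.1 in orb2-delta-zz, against 6.36 ± 1.89 in wild type (SD, n = 3 each), and its libraries did not overlap. Its log2 fold change was 1.95 (limma adjusted p = 0.0171), and the call was lost without orb2-delta-zz replicate 1 or wild type replicate 1. On TPM the log2 fold change of Syt7 was 0.58. The abundant transcripts PlexB and unc-13 were higher by 0.33 and 0.36 on the log2 scale (limma adjusted p = 0.00166 and 0.00213). Their mean normalized counts were 11974 ± 354.3 and 12248 ± 544.7 in orb2-delta-zz, against 9508 ± 597.9 and 9575 ± 675.5 in wild type (SD, n = 3 each). The pseudogene CR43361 overlaps unc-13 by 2746 bp on the opposite strand and was called in the other direction.

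The ephrin receptor Eph was lower at 1-2h and the semaphorin receptor PlexA at 2-3h. Eph had normalized counts at 1-2h of 8958, 8881 and 8843 in orb2-delta-zz, against 10790, 11016 and 12399 in wild type. The groups were apart, and the log2 fold change was -0.36 (limma adjusted p = 0.037), with an adjusted p of 0.0606 with the replicate block. That call was also lost on TPM and without any 1 orb2-delta-zz replicate or wild type replicate 3. With all libraries, Eph at 2-3h and PlexA at 1-2h did not pass the test, at -0.38 and -0.48 (limma adjusted p = 0.182 and 0.0573). PlexA had normalized counts at 2-3h of 33922, 34268 and 34244 in orb2-delta-zz, against 44169, 46999 and 43206 in wild type. The orb2-delta-zz libraries lay within a narrow range below the wild type libraries, and the log2 fold change was -0.39 (limma adjusted p = 0.0338). The PlexA call was lost on TPM, with 1 weight per genotype, with the replicate block and in each fit that left out 1 library other than wild type replicate 1. With all libraries the ligand gene Ephrin did not pass the test at any time, with log2 fold changes of -0.07, -0.16 and -0.35.

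Zyx and Rnf11 were higher in orb2-delta-zz at 0-1h and 1-2h. Zyx, a LIM-domain protein of actin structures and Hippo signalling, had normalized counts at 0-1h of 1938, 1415 and 1510 in orb2-delta-zz, against 1049, 1146 and 1012 in wild type. The ring finger gene Rnf11 had 588.6, 626.6 and 720.8 in orb2-delta-zz, against 393.2, 380.0 and 377.1 in wild type. In both genes every orb2-delta-zz library was above every wild type library. At 0-1h the log2 fold change was 0.59 for Zyx (limma adjusted p = 0.00428) and 0.74 for Rnf11 (adjusted p = 0.000478). At 1-2h it was 0.48 and 0.66 (adjusted p = 0.0364 and 0.0473), and with the replicate block the adjusted p was 0.0527 for Zyx and 0.0727 for Rnf11. Both calls at 1-2h were also lost without any 1 orb2-delta-zz replicate or wild type replicate 3. That of Rnf11 was lost on TPM and without wild type replicate 1 as well. Zyx overlaps apolpp by 4033 bp and Rnf11 overlaps the calcium pump gene PMCA by 3195 bp, both on opposite strands.

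A last set was called at 0-1h alone. The tau tubulin kinase homologue Asator was higher by 0.20 on the log2 scale, the calcium-dependent kinase CaMKI by 0.18 and anne by 0.17 (limma adjusted p = 0.0313, 0.03 and 0.00955). Slip1, which binds the Slowpoke potassium channel, was lower, at -0.19 on the log2 scale, as was lncRNA:CR43958, at -0.33 (limma adjusted p = 0.00658 and 0.0169). The whole of lncRNA:CR43958, 830 bp, lies within Tdg on the same strand. The least abundant called member, CG1909, had normalized counts of 19.1, 26.6 and 13.1 in orb2-delta-zz, against 6.51, 2.19 and 1.02 in wild type. Its groups were apart and its log2 fold change was 2.44 (limma adjusted p = 0.0253), against 0.39 on TPM, where all of its values are low. Leaving out 1 library ended the call at 0-1h for CG1909, Syt7, pan, zfh2, Asator, CaMKI and lncRNA:CR43958, and kept it for the other 19 members.

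Several roles held no called member at any time point with all libraries in the fit. They were general transcription (Taf3, a TFIID subunit, MED26 of the Mediator complex, and Hcf), the TGF-beta family ligands tested (mav and myo), RNA and translation control (gw, Gyf and Pur-alpha), DNA repair and proteolysis (Tdg and Rad23), and metabolism and transport. The intervals were narrow for abundant members. The log2 fold change of gw at 0-1h was 0.03, with a 95% interval from -0.09 to 0.15, and that of Gyf, a partner of translational repressors, was -0.02, with an interval from -0.12 to 0.08. At 2-3h the intervals were wider, from -0.22 to 0.35 for gw and from -1.17 to 0.13 for Gyf. Of the non-coding RNA members, 1 of 3 tested was called at 0-1h and 0 of 10 at 2-3h, against 21.3% and 3.28% of all genes. Of the 3 pseudogenes, 2 were called at each time point, against 21.3%, 7.37% and 3.28% of all genes. These sets are too small to compare types of gene.

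Calls made at more than 1 time point had 1 direction in each case. In all, 28 members were called at 1 time point or more, 13 of them at 2 or more, and 58 at none. The 58 include lncRNA:CR44023 and CG33521, which were not tested at any time point, and members tested at 2-3h alone. These counts were not taken over all genes. Of the 26 members called at 0-1h, 25 had the same sign of change at 1-2h and 20 at 2-3h. The share with the same sign among all genes called at 0-1h was not taken. The kept signs are therefore not shown to be particular to the members. Eph was the 1 member called at 1-2h and not at 0-1h, and PlexA the 1 called at 2-3h and not at 0-1h.

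A joint limma fit of the 18 libraries tested whether the size of the genotype effect itself differed from one time point to another. For 1-2h against 0-1h the test called 0 of 68 members, against 0.12% of all genes, and 7 had an unadjusted p under 0.05, against 3.2% of all genes. For 2-3h against 0-1h it called 5 members, against 1.89% of all genes, and for 2-3h against 1-2h it called 1, against 0.79%. At an unadjusted p under 0.05 the counts were 18 members, against 11.5% of all genes, and 11, against 10.3%. The effect on dati was less negative at 2-3h than at 0-1h by 5.69 on the log2 scale (95% interval from 4.62 to 6.76, limma adjusted p = 1.5e-05), and than at 1-2h by 4.13 (adjusted p = 0.000898). For the other 4 the effect was more positive at 0-1h. The difference, 2-3h minus 0-1h, was -1.18 for Cadps (limma adjusted p = 0.00722), -0.48 for anne (adjusted p = 0.00958), -1.002 for Sox102F (adjusted p = 0.0322) and -2.08 for Syt7 (adjusted p = 0.039). The difference for dati from 0-1h was called in all 23 other fits. With the replicate block it was the 1 member called. The count was 14 when wild type replicate 1 of 2-3h was left out.

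Over the 3 time points most members stayed at a similar level, with a few large exceptions. This is a description from mean TPM + 1, for members with a mean of 5 TPM or more at 1 of the times compared, with no test. Of 52 members compared in orb2-delta-zz, 5 were 2-fold or more higher at 2-3h than at 0-1h and 10 were 2-fold or more lower, against 9.29% and 35.9% of all genes compared. Of 52 compared in wild type, 6 were higher and 7 lower, against 8.97% and 35.0% of all genes.

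Of the 6 members with higher levels at 2-3h in wild type, 4 were transcription factor genes. The mean level of ci at 0-1h was 3.00 TPM in orb2-delta-zz and 4.72 TPM in wild type. At 2-3h its libraries had 141.2, 205.9 and 238.7 TPM in orb2-delta-zz, against 228.2, 147.9 and 94.2 TPM in wild type. Its level overlapped between genotypes at 2-3h, with wild type replicate 1 the highest wild type library. The ratio of 2-3h to 0-1h was 49.1 in orb2-delta-zz and 27.6 in wild type for ci, 10.49 and 9.29 for pan, 9.46 and 8.94 for zfh2, and 8.63 and 7.64 for the forkhead gene fd102C. The apolipophorin gene apolpp had ratios of 2.05 in orb2-delta-zz and 4.50 in wild type. Cadps passed the limit in wild type alone, with ratios of 1.62 in orb2-delta-zz and 3.02 in wild type.

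Among the members with lower levels at 2-3h, Mitf had a mean of 163.1 TPM in orb2-delta-zz and 236.5 TPM in wild type at 0-1h, and of 5.97 TPM in orb2-delta-zz and 16.8 TPM in wild type at 2-3h. Its ratio of 2-3h to 0-1h was 0.0425 in orb2-delta-zz and 0.075 in wild type, the lowest of the members in both. The small GTPase gene Arl4 had ratios of 0.258 in orb2-delta-zz and 0.235 in wild type, the lipid kinase gene PIP4K 0.292 and 0.251, and CaMKI 0.305 and 0.298. Also past the limit in both genotypes were CG11076 and CG31998. In orb2-delta-zz alone the limit was passed by lncRNA:CR43958, Gyf, Tdg and Rnf11, with wild type ratios of 0.542 to 0.66. In wild type dati also passed it, at 0.229. In orb2-delta-zz dati was under the minimum of 5 TPM at both times and was not compared, so this is no difference between genotypes.

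**Figure D5:**
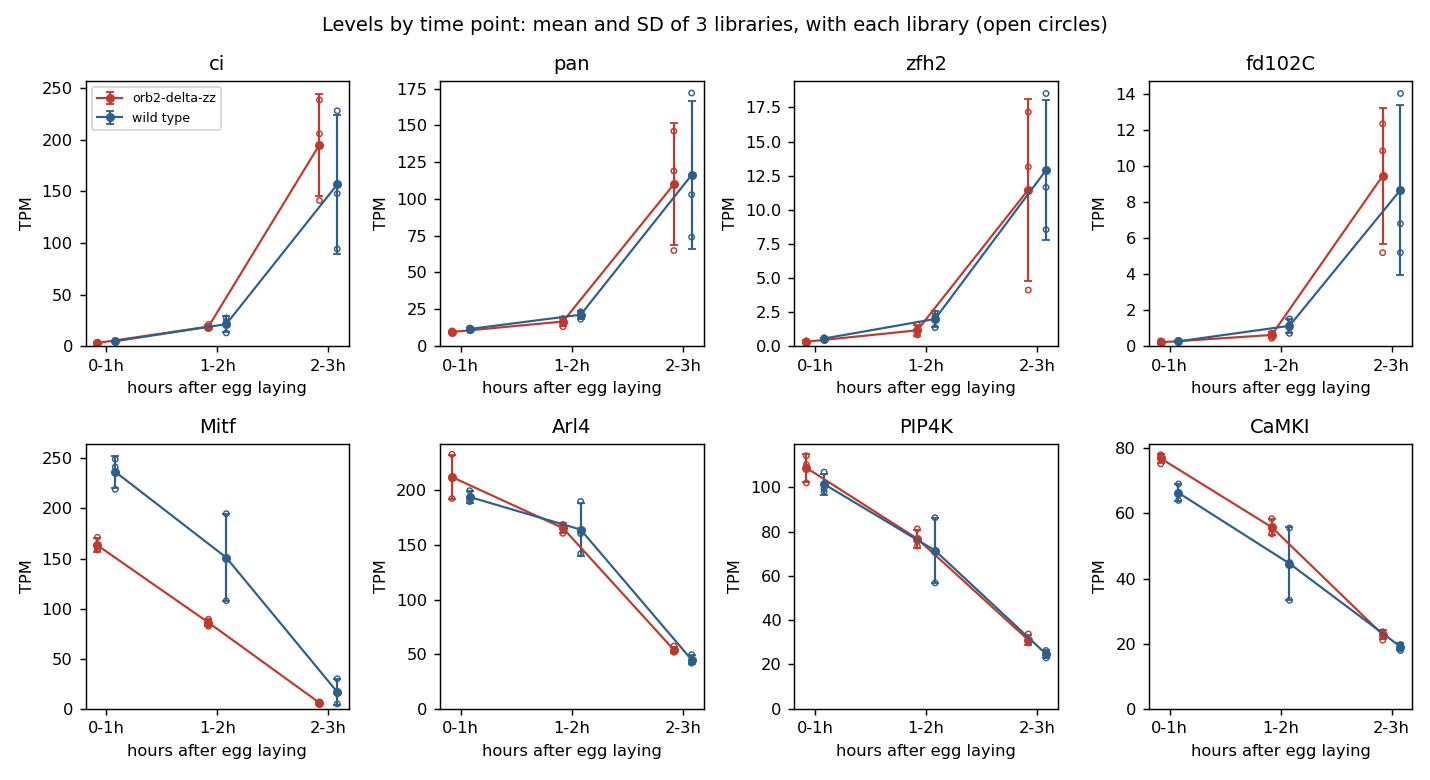
TPM (vertical axis) at each time point (horizontal axis) for 4 members with higher levels at 2-3h (top) and 4 with lower levels (bottom), with orb2-delta-zz in red and wild type in blue. Filled points and bars are the mean and SD of 3 libraries, and open circles are libraries. Mitf is lower in orb2-delta-zz at 0-1h and 1-2h, and for ci, pan, zfh2 and fd102C the libraries of both genotypes spread widely and overlap at 2-3h.

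The libraries of 1 group spread more at 2-3h than at 0-1h. Over members whose normalized count averaged at least 200, the median SD between libraries at 2-3h was 0.158 on the log2 scale in orb2-delta-zz and 0.270 in wild type, against 0.102 and 0.239 over all such genes. At 0-1h it was 0.0739 in orb2-delta-zz and 0.0580 in wild type, against 0.0601 and 0.0719 over all such genes.

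The genes known to act on this chromosome's chromatin lie elsewhere in the genome. Of 14 such genes, 3 were higher and 2 lower in orb2-delta-zz at 0-1h, against 11.2% and 10.1% of all genes. Higher were the heterochromatin proteins HP1b and Lhr and the histone demethylase Kdm4A, with log2 fold changes of 0.25, 0.44 and 0.34 (limma adjusted p = 0.0142, 0.00747 and 0.0013). Lower were the histone methyltransferase gene Su(var)3-9, at -0.27, and Hmr, at -0.20 (adjusted p = 0.004 and 0.0188). Pof, at 0.14, and egg, which encodes the H3K9 methyltransferase of the chromosome, at -0.06, did not pass the test. At 1-2h Kdm4A alone of the 14 was called, and at 2-3h 0 were, against 7.37% and 3.28% of all genes.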

How the data were processed

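RNA was extracted with TRIzol, ribosomal RNA was removed, and strand-specific libraries were made, per the labels' protocols. The authors deposited, for each time point, a table of normalized counts (a scaled signal per gene and library) and a table of TPM. The submitters' processing notes name Trim Galore 0.6.5, Salmon and DESeq2 1.42.1, without roles. The authors' genome build, annotation and strand setting were not given in the sources used here. Coordinates are those of the Ensembl release 115 annotation of BDGP6.54, matched by FlyBase identifier (9171 of 9236). No genome sequence was used here.

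The members and gene lists were chosen with earlier results of these data known. Named members were those called at a time point, the most abundant, those with the largest differences over time and the chromosome's landmark genes. The values of 1 called member are not reported here.

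At each time point limma 3.58.1 (trend method, R 4.3.3) compared orb2-delta-zz with wild type in log2(normalized count + 1). Genes whose normalized count averaged under 10 over 6 libraries were left out. The two-sided p-values were adjusted by Benjamini and Hochberg's method over every gene tested in the table, and 0.05 was the limit for a call. Because 1 is added before the log2, fold changes of low genes are understated. For a single gene, an exact permutation test of 3 against 3 libraries cannot give a p under 0.1. Differences of genotype effects used 1 joint fit. Low values came out as whole reads, within 0.1, for 26.7% to 69.6% per library, where 95% was required. Depth is therefore unknown, and count models were not used.

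Same-numbered libraries of the genotypes correlated in their deviations from the group means at 1-2h (0.159, 0.129 and 0.173 for numbers 1 to 3), so the numbers were taken as pairing samples there. The correlations were 0.0246, -0.0608 and 0.00435 at 0-1h and -0.126, -0.332 and -0.205 at 2-3h. Alternatives were the pseudocount, the filter, rescaling by trimmed means, TPM, the replicate block, weights per genotype and each library left out. Plots used matplotlib 3.10.9 (Python 3.11.15).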

Additional observations from a re-analysis of the deposited data

Results flagged for a closer look

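In 5 members the genotype effect differed between time points in the joint limma fit. The difference of the log2 fold changes of orb2-delta-zz over wild type, 2-3h minus 0-1h, was 5.69 for dati (limma adjusted p = 1.5e-05), -1.18 for Cadps (adjusted p = 0.00722), -0.48 for anne (adjusted p = 0.00958), -1.002 for Sox102F (adjusted p = 0.0322) and -2.08 for Syt7 (adjusted p = 0.039). For 2-3h minus 1-2h it was 4.13 for dati (adjusted p = 0.000898).

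For dati all 3 orb2-delta-zz libraries lay below all 3 wild type libraries at each time, with mean normalized counts at 0-1h of 1.81 in orb2-delta-zz and 631.0 in wild type, and at 2-3h of 23.6 in orb2-delta-zz and 112.1 in wild type. For anne the difference was called at 0-1h and not at 2-3h, with mean normalized counts at 0-1h of 13104 in orb2-delta-zz and 11632 in wild type, and at 2-3h of 10192 in orb2-delta-zz and 12642 in wild type. The difference was called in each of the 18 fits that left out 1 library for dati, Cadps and anne, in 9 of 18 for Sox102F and in 5 of 18 for Syt7.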

How the results depend on the processing

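For the 28 members called at 1 time point or more, no value changed direction past the threshold in any alternative run. Of their 1085 values under alternatives, 963 kept their side of the threshold, 105 lost the call and 17 gained one. With each library left out in turn, the count of members called was 21 to 28 at 0-1h (26 with all), 8 to 21 at 1-2h (14 with all) and 1 to 20 at 2-3h (8 with all), and 19, 8 and 0 calls were kept in every such fit. The count of members whose effect differed was 0 throughout for 1-2h minus 0-1h, 3 to 14 for 2-3h minus 0-1h and 1 to 11 for 2-3h minus 1-2h. The highest counts at 2-3h came without wild type replicate 1, and the cause was not tested. The replicate block gave 23 called at 0-1h, 10 at 1-2h and 1 at 2-3h, and for the differences 0, 1 and 1 in the same order. The numbers were taken as pairing samples at 1-2h alone, from weak correlations. There the block changed no calls beyond those of CG11155, Eph, Rnf11 and Zyx. On TPM 2 members differed for 2-3h minus 0-1h, and with 1 weight per group 1 did, and 0 for 2-3h minus 1-2h. In the description over time, a 3-fold limit left 5 members lower at 2-3h in orb2-delta-zz, where the 2-fold limit gave 10, and leaving out libraries gave 8 to 13. The counts higher at 2-3h were 4 to 6 in orb2-delta-zz and 6 to 7 in wild type, and those lower in wild type 7 to 9. Unknown depth limits the lowest members most.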
